A study of Rattus norvegicus with 24 samples.

Results

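A set of 9 genes of fatty acid and triglyceride synthesis, Scd, Fasn, Acaca, Acacb, Acly, Srebf1, Elovl6, Me1 and Dgat2, were followed in the quadriceps femoris muscle of rats. The members were the 9 rows of the deposited table whose gene symbol is one of these names, of 21067 genes listed, and all 24 libraries were used. The rats were Sprague-Dawley animals of both sexes, 6 weeks old when obtained, in 4 groups with 6 libraries each. The control group was fed normally and did no treadmill training. The treadmill group trained on an incremental treadmill program of 7 weeks and then ran to exhaustion. Catgut group 1 and catgut group 2 did the same training and run after a piece of absorbable collagen thread had been embedded at acupoints. The points of catgut group 1 were Qian Shen, Yang Wa, Han Gou, Xie Qi, Bai Hui and Qiang Feng, and catgut group 2 had Fei Shu besides. No group received the thread without training, so the thread is measured here only on top of the exercise. The paper describes embedding by needle under ether and lists no sham group. Thread, needling and anaesthesia therefore cannot be told apart. The labels name the tissue quadriceps muscle and number the libraries within each group, but they do not give the sex of an animal or the time of day of sampling.

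New fatty acids are built in the cytosol from citrate. Acly, ATP citrate lyase, splits citrate into acetyl-CoA, Acaca and Acacb are the acetyl-CoA carboxylases that make malonyl-CoA, and Fasn, fatty acid synthase, joins these units into palmitate with NADPH that Me1, cytosolic malic enzyme, helps to supply. Elovl6 lengthens palmitate, Scd, stearoyl-CoA desaturase, puts a double bond into the chain, and Dgat2 attaches the last fatty acid to diacylglycerol to give triglyceride. Srebf1 encodes the transcription factor SREBP-1, which is known to drive most of these genes in liver and adipose tissue when insulin is high. Muscle makes little fatty acid of its own, and its carboxylase of mitochondria, Acacb, is known mainly for making the malonyl-CoA that restrains fatty acid entry into mitochondria.

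Total counts were 45945938 to 78278080 per library. FPKM values (fragments scaled to transcript length and to the depth of the library) are the authors' and are used for levels, since they can be compared between genes. The 7 listed skeletal muscle markers summed to 63564 to 87597 FPKM in the 24 libraries, and Acta1, skeletal muscle actin, was 22811 to 35310 FPKM, so the libraries carry the muscle label although the extraction text of the labels speaks of adipose RNA. The names Myh4, Myh2 and Ttn were not found among the symbols. In bulk muscle, fewer cells of a type and less RNA per cell cannot be told apart. The libraries of 3 samples held liver transcripts, with Alb, albumin, at 135 FPKM in control replicate 2, 14.3 in treadmill replicate 2 and 226 in treadmill replicate 3, against at most 3.14 FPKM in the other 21. Values without these 3 libraries are given below where they change a call.

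The members spanned a wide range of levels. Over the 24 libraries, the mean level was 85.0 FPKM for Me1, 26.8 for Acacb, 19.2 for Dgat2, 11.9 for Srebf1, 3.16 for Acly, 1.09 for Acaca, 0.506 for Fasn and 0.478 for Scd. Me1 alone held 57.3% of the summed FPKM of the 9 genes and stood at percentile 95.2 of the tested genes, while Fasn and Scd stood at percentiles 19.1 and 18.5. The carboxylase of mitochondria, Acacb, was thus far above its cytosolic counterpart Acaca, with 18.3 to 35.0 FPKM against 0.780 to 1.64 FPKM and no overlap in the 24 libraries. Elovl6 (ENSRNOG00000010468) was listed at 0 in 22 libraries and had 3 counts each in catgut group 2 replicates 2 and 4 (0.0367 and 0.0273 FPKM). These counts lie under the 12 counts taken as the limit of detection, so Elovl6 was not detectable at this depth, and it did not enter the tests. The other 8 members were above that limit in all 24 libraries and were all tested.

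**Figure D1:**
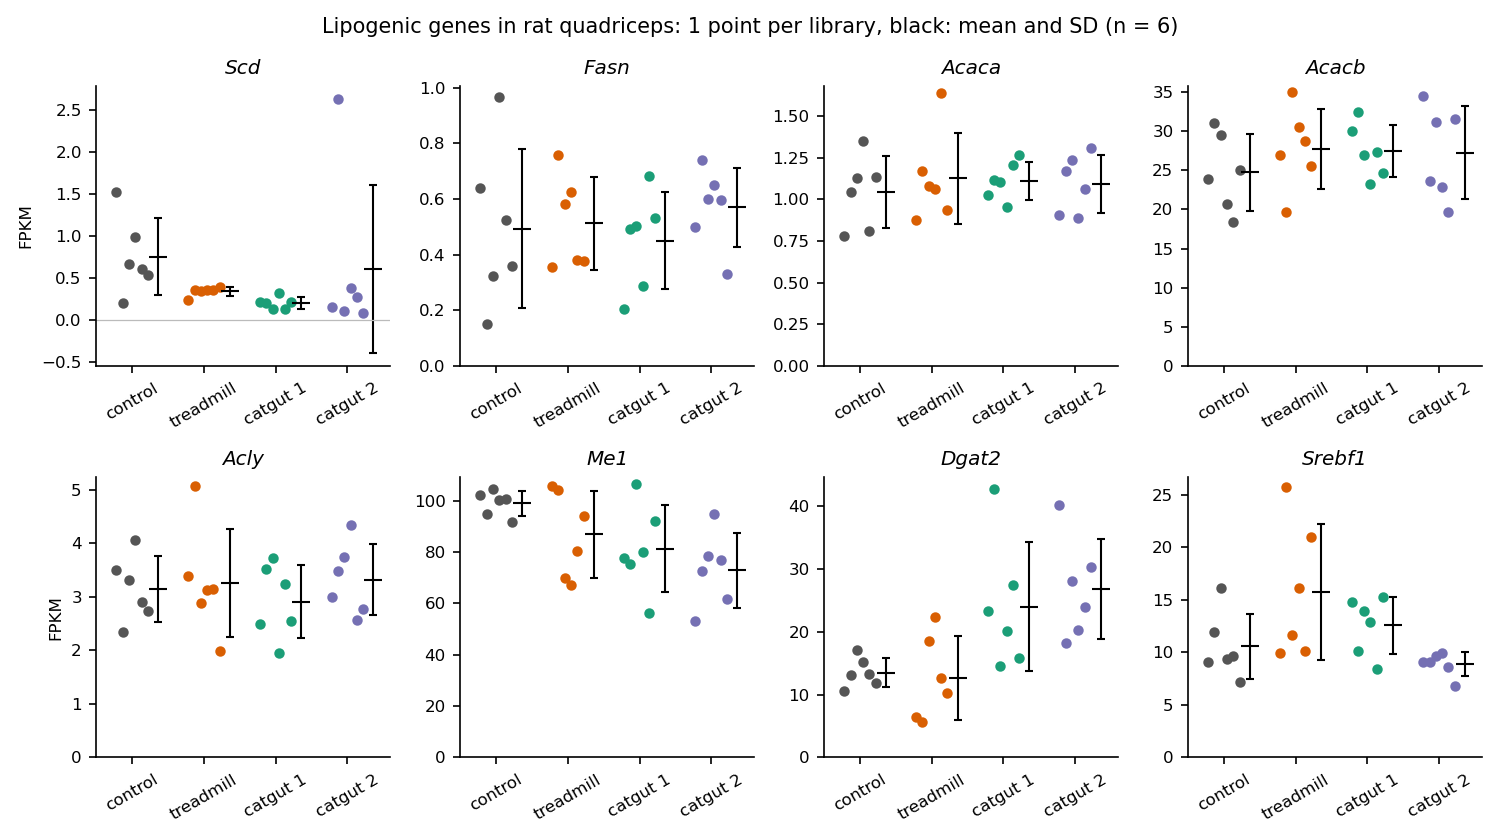
Level of the 8 tested members in FPKM (vertical axis, linear, a different scale per gene) by group. Each point is 1 library and the black mark gives the mean and SD of 6 libraries. Scd was between 0.239 and 0.394 FPKM in all treadmill libraries and reached 2.64 FPKM in catgut 2 replicate 2, and every catgut 2 library was above the control group for Dgat2.

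Scd (ENSRNOG00000013552, chromosome 1, 264160129 to 264172729 in the coordinates of the deposited table, minus strand) was the member with the largest spread. Its level was 0.757 ± 0.456 FPKM in the control group (SD, n = 6), 0.342 ± 0.0531 in the treadmill group, 0.204 ± 0.0687 in catgut group 1 and 0.608 ± 1.00 in catgut group 2. The control libraries ran from 0.199 FPKM through a median of 0.643 to 1.53. The treadmill libraries ran from 0.239 through 0.355 to 0.394, and those of catgut group 1 from 0.133 through 0.210 to 0.320. Control replicate 2 lay below all treadmill libraries and the other 5 control libraries lay above them, so the groups interleave only through that library. In catgut group 2 the 6 values were 0.158, 2.64, 0.106, 0.384, 0.280 and 0.0826 FPKM for replicates 1 to 6. Replicate 2 alone was above all control libraries, and without it the mean of catgut group 2 was 0.202 ± 0.127 FPKM (SD, n = 5), close to that of catgut group 1. All of these are low levels, from 21 to 735 counts per library.

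The 300 bases around the transcription start of Scd are shown because Scd is the desaturase that moved in the exercise comparison, and those of the 2 listed starts of Srebf1 because its product binds promoters of this group. They are RefSeq sequences of the assembly GRCr8, 250 bases before to 50 bases after the start, on the minus strand, at chr1:253231682-253231981 for Scd and at chr10:45529115-45529414 and chr10:45518961-45519260 for Srebf1. The assembly differs from the coordinates of the deposited table, which are not mixed with these. Capitals mark the CCAAT box, the letters bound by NF-Y, which here reads ATTGG on the opposite strand.
Scd: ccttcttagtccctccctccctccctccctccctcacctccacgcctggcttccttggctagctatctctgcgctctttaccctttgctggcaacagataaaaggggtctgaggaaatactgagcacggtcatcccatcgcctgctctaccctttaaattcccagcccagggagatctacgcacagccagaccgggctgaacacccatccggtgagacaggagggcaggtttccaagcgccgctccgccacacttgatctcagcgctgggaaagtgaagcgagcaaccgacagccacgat
Srebf1, upstream start: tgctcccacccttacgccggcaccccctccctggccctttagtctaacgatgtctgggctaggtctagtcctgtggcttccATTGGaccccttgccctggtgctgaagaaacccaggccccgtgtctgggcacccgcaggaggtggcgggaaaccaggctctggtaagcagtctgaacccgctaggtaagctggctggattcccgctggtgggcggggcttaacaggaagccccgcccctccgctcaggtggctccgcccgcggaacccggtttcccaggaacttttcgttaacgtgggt
Srebf1, downstream start: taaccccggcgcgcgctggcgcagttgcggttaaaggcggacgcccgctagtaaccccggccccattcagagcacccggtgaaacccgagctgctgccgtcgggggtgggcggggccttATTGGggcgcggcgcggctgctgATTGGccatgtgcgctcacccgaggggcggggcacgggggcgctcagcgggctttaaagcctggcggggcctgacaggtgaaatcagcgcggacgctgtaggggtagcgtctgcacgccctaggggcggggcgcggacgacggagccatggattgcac
Promoters were listed for 5 of the 9 members, Scd, Me1, Srebf1, Acly and Acacb, and both strands of each were searched for the letters TCACNCCAC (sterol regulatory element), CACGTG (E-box), CCAAT (NF-Y box) and TTANGTAA (D-box). Only CCAAT was found, beginning at -169 of the upstream and at -131 and -108 of the downstream Srebf1 start, at -71 of Acly and at -72 of Acacb, with no overlap of matches. The share of all 33469 promoters of this length with the letters was 37.5% for CCAAT, 6.42% for CACGTG, 2.24% for TTANGTAA and 1.12% for TCACNCCAC. The deposited counts are per gene and do not separate the Srebf1 starts.

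Treadmill against control asks what training with exhaustion changed. Each comparison was read at 2 thresholds. The criterion of the study is a ratio of the group mean FPKM beyond 1.5-fold in either direction with an unadjusted p under 0.05, here from edgeR's quasi-likelihood test, and genes that meet it are called DEGs. The stricter threshold is an adjusted p under 0.05 over the 14772 genes tested. Between treadmill and control, Scd was the only member among the DEGs. It was downregulated in the treadmill group by 2.21-fold in mean FPKM (log2 fold change -1.09 ± 0.37 SE, edgeR adjusted p = 0.471), with an exact two-sided permutation p of 0.0281 on log2(FPKM + 1). That is 1 of 8 members beside 2.85% of all genes tested. No member passed the adjusted threshold in edgeR, limma or DESeq2, beside 0.0542% of all genes in edgeR, and 2 members had an unadjusted p under 0.05 beside 9.12% of all genes.

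The Scd difference between treadmill and control was called in 23 of 25 other settings. In 1 fit over all 4 groups, which pools their spread, its unadjusted p was above 0.05 and it was no longer called (edgeR adjusted p = 0.595). The call was also lost with the replicate block (log2 fold change -0.86, edgeR adjusted p = 0.676). Without control replicate 1, the highest control library, the call was kept and the log2 fold change was -0.73 (edgeR adjusted p = 0.453).

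The other member with an unadjusted p under 0.05 was Srebf1 (ENSRNOG00000003463, chromosome 10, 46570996 to 46593009, minus strand). Its level was 10.6 ± 3.13 FPKM in the control group and 15.8 ± 6.48 in the treadmill group (SD, n = 6), and its ratio of 1.49 stayed just short of the criterion (log2 fold change 0.60 ± 0.25 SE, edgeR adjusted p = 0.526). It met the criterion without control replicate 2 or 3 or treadmill replicate 1, 3 or 5, with log2 fold changes of 0.65 to 0.75. The treadmill libraries ran from 9.91 through a median of 13.9 to 25.7 FPKM, the control libraries from 7.18 through 9.54 to 16.1. Replicates 2 and 6 of the treadmill group, at 25.7 and 21.0 FPKM, were above every control library and the other 4 lay within the control range.

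Catgut group 1 against treadmill asks what the embedding at the first set of points, with its needling and anaesthesia, added to training. Scd was downregulated by a further 1.67-fold in mean FPKM (log2 fold change -0.75 ± 0.29 SE, edgeR adjusted p = 0.562, exact permutation p = 0.00433). Of the 6 catgut group 1 libraries, 5 were below all treadmill libraries, the exception being replicate 4 at 0.320 FPKM. This call too was lost in the fit over all 4 groups (edgeR adjusted p = 0.890). Dgat2 (ENSRNOG00000016573, chromosome 1, 164113459 to 164143818, minus strand) was upregulated by 1.90-fold (log2 fold change 0.87 ± 0.38 SE, edgeR adjusted p = 0.676). These 2 of 8 members were the DEGs of the group, beside 3.12% of all genes. No member passed the adjusted threshold in edgeR, limma or DESeq2, beside 0.0474% of all genes, and the same number of 2 had an unadjusted p under 0.05, beside 6.93%.

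Catgut group 2 against treadmill asks the same of the points that include Fei Shu, and it shares the treadmill libraries with the comparison before. Dgat2 was upregulated by 2.13-fold (log2 fold change 1.05 ± 0.38 SE, edgeR adjusted p = 0.304), and Srebf1 was downregulated by 1.77-fold (log2 fold change -0.84 ± 0.21 SE, edgeR adjusted p = 0.143). For Srebf1, the catgut group 2 libraries ran from 6.83 through a median of 9.12 to 9.98 FPKM, with a mean of 8.88 ± 1.11 (SD, n = 6). Of the 6, 5 were below the lowest treadmill library at 9.91 FPKM and replicate 4 was just above it, and the exact permutation p was 0.00433. These 2 of 8 members were DEGs beside 3.76% of all genes, 3 had an unadjusted p under 0.05 beside 10.7%, and none passed the adjusted threshold in edgeR or limma, beside 0.237%. DESeq2 gave 1 member under that threshold, Srebf1, at an adjusted p of 0.00832, and no p for Scd.

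Scd did not differ between catgut group 2 and treadmill beyond its spread, with a log2 fold change of 0.70 and a 95% interval from -0.85 to 2.25 (edgeR adjusted p = 0.810). The sign rests on catgut group 2 replicate 2. Without that library the log2 fold change was -0.79 (edgeR adjusted p = 0.494).

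Catgut group 2 against catgut group 1 asks whether the added point made a difference. Of the 8 members, 0 were DEGs beside 1.25% of all genes, 0 passed the adjusted threshold in edgeR, limma or DESeq2 beside 0.00677%, and 1 had an unadjusted p under 0.05 beside 3.26%. That member was Srebf1, at 12.6 ± 2.72 FPKM in catgut group 1 (SD, n = 6) and 1.42-fold lower in catgut group 2 (log2 fold change -0.52 ± 0.16 SE, edgeR adjusted p = 1). Scd had the largest log2 fold change, 1.45 with a 95% interval from -0.17 to 3.06 (edgeR adjusted p = 1), and -0.04 without catgut group 2 replicate 2 (edgeR adjusted p = 1). With DESeq2 the Scd value met the criterion at an adjusted p = 1.

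The catgut groups were also set against the untrained control group. Against it, catgut group 1 had 3.70-fold less Scd (log2 fold change -1.84 ± 0.42 SE, edgeR adjusted p = 0.245) and 1.78-fold more Dgat2 (log2 fold change 0.84 ± 0.23 SE, edgeR adjusted p = 0.303). These were 2 of 8 members beside 4.62% of all genes, with 0 members past the adjusted threshold in edgeR or limma beside 0.0203%, 2 in DESeq2, and 3 with an unadjusted p under 0.05 beside 9.84%. In DESeq2 the adjusted p was 0.00280 for Scd and 0.0245 for Dgat2.

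In catgut group 2 against control, 1 of 8 members was a DEG beside 5.95% of all genes. Dgat2 was upregulated by 1.99-fold (log2 fold change 1.02 ± 0.21 SE, edgeR adjusted p = 0.0577, exact permutation p = 0.00216, the smallest that 6 against 6 libraries can give). All 6 libraries were above every control library, as were the libraries of 0.724% of all genes. At an unadjusted p under 0.05 there were 2 members beside 16.4% of all genes, and 0 passed the adjusted threshold in edgeR beside 0.508%. DESeq2 put 2 members under that threshold, Dgat2 at 0.000249 and Me1 at 0.00116, and limma 1, Dgat2 at 0.0441. Scd was 0.804 of the control mean (log2 fold change -0.38, edgeR adjusted p = 0.858), but without catgut group 2 replicate 2 its log2 fold change was -1.88, past the criterion (edgeR adjusted p = 0.150).

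**Figure D2:**
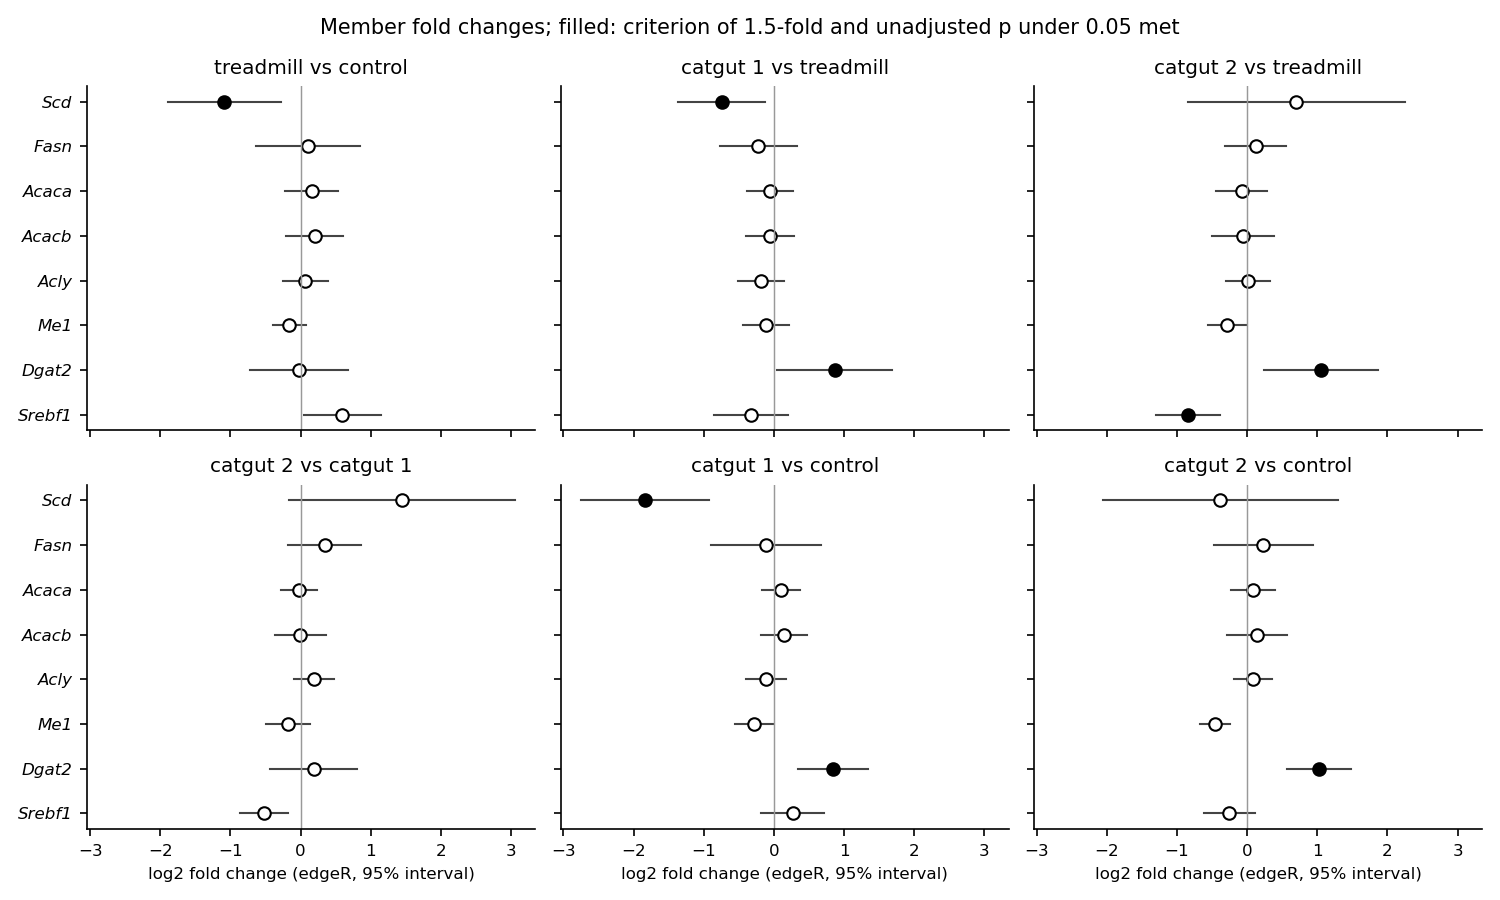
Log2 fold change of each member (horizontal axis, edgeR estimate with an approximate 95% interval) in the 6 comparisons, with the first-named group over the other. Filled points met the criterion of 1.5-fold and an unadjusted p under 0.05. Dgat2 is to the right of 0 in all 4 comparisons of a catgut group with treadmill or control, Scd is filled on the left in 3 comparisons, and its interval is widest where catgut group 2 enters.

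By group, Dgat2 was 13.5 ± 2.32 FPKM in control, 12.6 ± 6.68 in treadmill, 23.99 ± 10.3 in catgut group 1 and 26.8 ± 7.99 in catgut group 2 (SD, n = 6). The control libraries ran from 10.6 through a median of 13.2 to 17.1 FPKM and the treadmill libraries from 5.62 through 11.4 to 22.4. Catgut group 1 ran from 14.5 through 21.7 to 42.7 and catgut group 2 from 18.2 through 26.0 to 40.2. Control and treadmill did not differ beyond their spread (log2 fold change -0.03 with a 95% interval from -0.73 to 0.67), nor did the catgut groups (0.19 with an interval from -0.44 to 0.81). The DEG call against treadmill was kept in all 26 other settings for catgut group 2 but in only 15 of 26 for catgut group 1, where leaving out any of 8 of the 12 libraries ended it. Its sister enzyme Dgat1, which makes the same bond, was 15.9 to 20.3 FPKM in control and 18.5 to 22.7 in catgut group 2 and met the criterion in 0 comparisons.

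Me1 (ENSRNOG00000009715, chromosome 8, 94256839 to 94368834, minus strand) ran the other way with small steps. It was 98.9 ± 4.84 FPKM in control, 86.8 ± 16.8 in treadmill, 81.2 ± 16.9 in catgut group 1 and 72.9 ± 14.6 in catgut group 2 (SD, n = 6). The control libraries were tightly placed between 91.6 and 104 FPKM, while catgut group 2 ran from 52.9 through a median of 74.7 to 94.9. Of the 6 catgut group 2 libraries, 5 lay below all control libraries, and the ratio was 1.36-fold lower (log2 fold change -0.45 ± 0.10 SE, edgeR adjusted p = 0.0669). It is under the 1.5-fold of the criterion, so Me1 was a DEG in 0 comparisons. Its unadjusted p was also under 0.05 for catgut group 2 against treadmill (log2 fold change -0.29, edgeR adjusted p = 0.437) and for catgut group 1 against control (-0.28, edgeR adjusted p = 0.490). Neighbouring groups in this order did not differ beyond their spread.

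Dgat2 and Me1 followed the muscle fibre markers of the libraries. Mb, myoglobin, the oxygen store of oxidative fibres, was 5700 ± 1155 FPKM in control, 7314 ± 2905 in treadmill, 7985 ± 3444 in catgut group 1 and 10402 ± 3674 in catgut group 2 (SD, n = 6), and it met the criterion in catgut group 2 against control (1.83-fold, edgeR adjusted p = 0.124). Over the 24 libraries, Pearson's r with Mb on log2(FPKM + 1) was 0.79 for Dgat2 (Spearman's rho 0.76) and -0.89 for Me1 (rho -0.89). Within groups, after the group means were taken off, r was 0.84 and -0.86, and without the 2 libraries farthest from the median of Mb it was 0.73 and -0.85. The other 6 members had r with Mb between -0.25 and 0.50. These values describe libraries that share a dissection and a scaling and were not tested. Myh7, the slow myosin, was also higher where Dgat2 was (r = 0.68, rho 0.68) and where Acacb was (r = 0.63, rho 0.66), and it ran from 0.0984 to 417 FPKM between libraries.

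**Figure D3:**
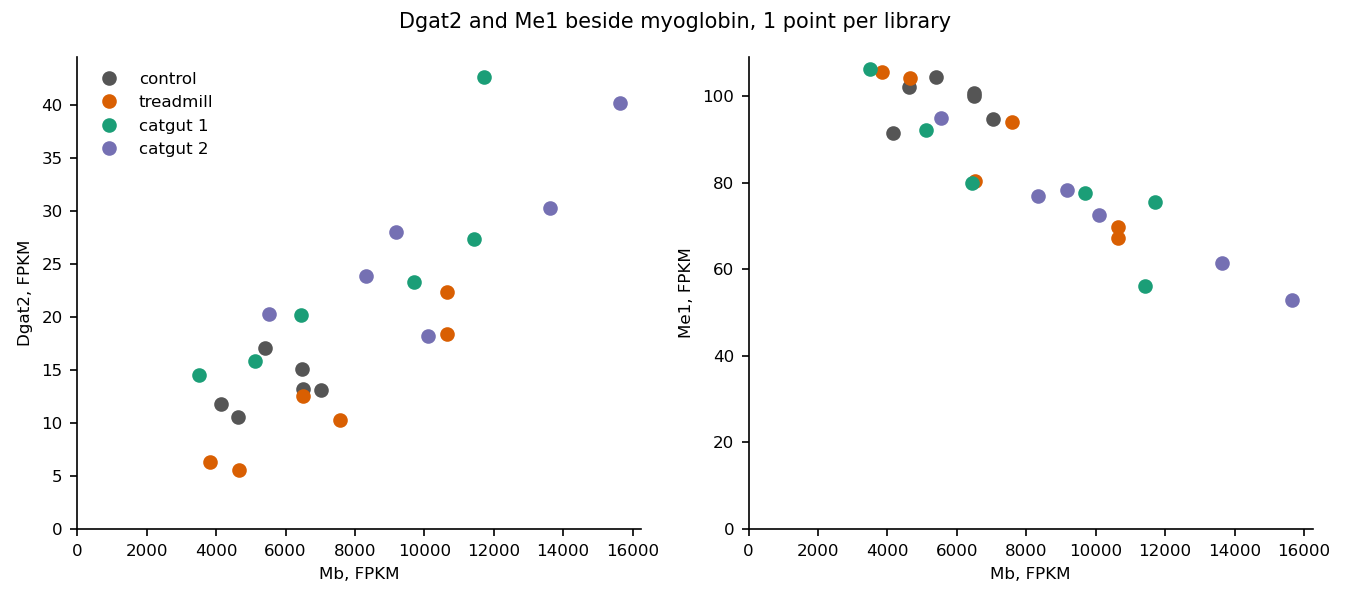
Level of Dgat2 (left) and Me1 (right) in FPKM against Mb, myoglobin, in FPKM, all axes linear from 0. Each point is 1 of 24 libraries, coloured by group. Over the libraries Dgat2 was higher and Me1 lower where Mb was higher, with r of 0.79 and -0.89.

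With the Mb level as a covariate, an alternative added after the data were seen, Dgat2 was 0.86 higher on the log2 scale in catgut group 1 than in treadmill (edgeR adjusted p = 0.121) and 0.62 higher in catgut group 2 (edgeR adjusted p = 0.212). Both stayed DEGs. Against control, Dgat2 was 0.49 higher in catgut group 1 (edgeR adjusted p = 0.435) and 0.47 higher in catgut group 2 (edgeR adjusted p = 0.841), where the unadjusted p was above 0.05 and the call was lost. In treadmill against control, the Dgat2 value with this covariate was -0.55 in place of -0.03, with an unadjusted p under 0.05 (edgeR adjusted p = 0.674). The Me1 difference of catgut group 2 against control was -0.20 (edgeR adjusted p = 0.830) in place of -0.45. Scd kept an unadjusted p under 0.05 with this covariate in its 3 comparisons, with log2 fold changes of -1.09, -0.75 and -1.72.

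The remaining members held no DEG. Fasn (ENSRNOG00000045636, chromosome 10, 109987735 to 110005901) was 0.149 to 0.965 FPKM in control and within that range in the other 18 libraries. Acly (ENSRNOG00000016924, chromosome 10, 88392248 to 88442845) was 1.95 to 5.07 FPKM, Acaca (ENSRNOG00000034013, chromosome 10, 71536533 to 71719910) 0.780 to 1.64, and Acacb (ENSRNOG00000000658, chromosome 12, 48127149 to 48238887) 18.3 to 35.0. Each of the 4 was a DEG in 0 of 6 comparisons. The lowest unadjusted edgeR p over the 6 comparisons was 0.176 for Fasn, 0.379 for Acaca, 0.304 for Acacb and 0.167 for Acly. Their log2 fold changes ran from -0.22 to 0.34 for Fasn, from -0.08 to 0.16 for Acaca, from -0.06 to 0.20 for Acacb and from -0.18 to 0.19 for Acly. Differences within the approximate 95% intervals could have been missed. These reached -0.90 to 0.94 for Fasn, -0.44 to 0.53 for Acaca, -0.51 to 0.61 for Acacb and -0.51 to 0.47 for Acly. Over all 6 comparisons, the median log2 fold change of the 8 members was between -0.15 and 0.09, beside -0.01 to 0.01 over all genes tested, with members on both sides of 0 in every comparison.

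Transcripts of other cells moved with Scd in part. Adipoq, adiponectin, which adipocytes secrete, was 18.7, 21.4 and 6.77 FPKM in control replicates 1, 4 and 5 and at most 1.42 in the other control libraries. Replicates 1 and 4 also held the highest Scd of the group, 1.53 and 0.994 FPKM. The 6 genes of the adipocyte level, Adipoq, Plin1, Cidec, Lep, Cfd and Retn, summed to 3.34 to 92.4 FPKM in control, 4.01 to 52.1 in treadmill, 5.48 to 32.0 with catgut 1 and 3.25 to 41.2 with catgut 2. With their mean log2(FPKM + 1) as a covariate, the log2 fold change of Scd was -0.88 for treadmill against control (edgeR adjusted p = 0.502), -0.83 for catgut group 1 against treadmill (edgeR adjusted p = 0.671) and -1.43 for catgut group 1 against control (edgeR adjusted p = 0.418). All 3 kept an unadjusted p under 0.05, the only part of the criterion that a covariate can change. Control replicate 3, in contrast, had 0.0450 FPKM of Adipoq and 0.671 FPKM of Scd. Of the whole list of 13 adipocyte markers, 11 were listed and none of these was at 0 throughout, and they summed to 350 to 701 FPKM in control, 328 to 657 in treadmill, 321 to 624 with catgut 1 and 471 to 707 with catgut 2. The medians of this sum were 419, 440, 480 and 603 FPKM in the same order of groups, and those of the 6-gene sum 22.8, 26.2, 10.9 and 14.1. By median, the 6-gene sum was thus lower in the catgut groups than in control, and the whole sum was higher. The 6 genes made up a small part of the whole sum, which rests on the most abundant markers. Gene by gene, 2 of 9 tested markers had a log2 fold change above 0 in each catgut group against control. The median was -1.37 in catgut group 1 and -0.86 in catgut group 2, beside -0.01 and -0.005 over all genes. Of 9 adipocyte markers tested, 1 was downregulated in treadmill against control (Lep), beside 2.85% of all genes. In catgut group 1 against control 3 were (Adipoq, Cidec and Trarg1), beside 4.62%, and in catgut group 2 against control 1, beside 5.95%.

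The high Scd of catgut group 2 replicate 2 came with other transcripts. This library had the highest level among the 24 libraries of Pmp22, at 31.3 FPKM, and of Mbp, at 8.42 FPKM, both genes of nerve myelin that were looked at after the data were seen. It also had the highest Scd2, a desaturase known from brain, at 12.2 FPKM against 2.18 to 6.71 in the other libraries. Its Adipoq was 0.518 FPKM. The part of these transcripts in the Scd value was not tested. Scd, Scd2 and Scd4 are close relatives, as are Acaca and Acacb, and how the authors' counting shared reads between them is not given in the sources used here.

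**Figure D4:**
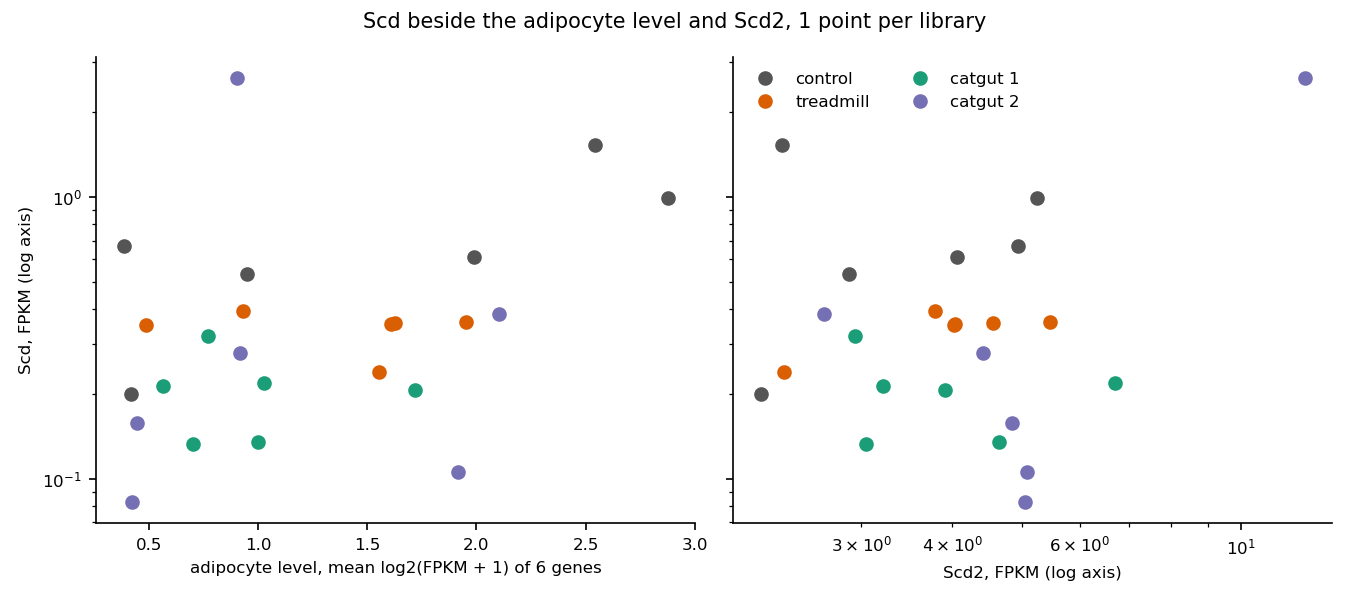
Level of Scd in FPKM (vertical, log axis) against the adipocyte level, the mean log2(FPKM + 1) of 6 adipocyte genes (left, linear axis), and against Scd2 in FPKM (right, log axis). Each point is 1 of 24 libraries, coloured by group. The point at the top is catgut 2 replicate 2, with 2.64 FPKM of Scd, 12.2 FPKM of Scd2 and an adipocyte level of 0.902, and the next below are control replicates 1 and 4.

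The genes whose level was most like that of Scd were ranked by Pearson's r of log2(FPKM + 1) over the 24 libraries, among 10475 genes with a mean of at least 1 FPKM. Among the first 5 were Zfyve1 (r = 0.66, rho 0.72), Six2 (0.65, rho 0.58), Naxd (0.63, rho 0.39) and Cercam (0.63, rho 0.47). Without catgut group 2 replicate 2 they were Zfyve1 (r = 0.80), Diras3 (0.72), Trarg1 (0.71), which is also on the adipocyte list, Susd4 (0.68) and Serf1 (0.67), so only Zfyve1, a protein of lipid droplets and the endoplasmic reticulum, was in both lists. Among the 28 pairs of tested members, r ran from -0.76 for Me1 with Dgat2 to 0.66 for Fasn with Acly, with a median of -0.05. The libraries share groups and scaling, and these values are descriptions.

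Lists of related genes place the members in the pathway. Of 16 lipogenic regulators tested, 1 was upregulated and 2 were downregulated in treadmill against control, 1 was upregulated in catgut group 1 against treadmill, and 0 were DEGs in catgut group 2 against treadmill. The shares of all genes in these comparisons were 2.85%, 3.12% and 3.76%. Thrsp, a small lipogenic protein known to respond to thyroid hormone and carbohydrate, was 11.2 ± 4.24 FPKM in control, 4.65 ± 3.14 in treadmill, 4.20 ± 1.83 in catgut group 1 and 3.16 ± 1.42 in catgut group 2 (SD, n = 6). It was downregulated against control in treadmill (log2 fold change -1.27 ± 0.43 SE, edgeR adjusted p = 0.460), in catgut group 1 (-1.41 ± 0.34 SE, edgeR adjusted p = 0.264) and in catgut group 2 (-1.84 ± 0.33 SE, edgeR adjusted p = 0.0392), and the last of these passed the adjusted threshold. The 3 comparisons share the control libraries. Its paralog Mid1ip1, which helps acetyl-CoA carboxylase to polymerise, was 18.2 ± 5.74 FPKM in control, 11.4 ± 1.98 in treadmill and 18.7 ± 3.87 in catgut group 1 (SD, n = 6), lower in treadmill than in control (log2 fold change -0.65, edgeR adjusted p = 0.434) and higher in catgut group 1 than in treadmill (0.69, edgeR adjusted p = 0.193). Nfya, a subunit of the CCAAT-binding NF-Y, was upregulated against control in treadmill (0.63, edgeR adjusted p = 0.410) and in catgut group 1 (0.70, edgeR adjusted p = 0.264).

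Around Dgat2, the 17 tested genes of glycerolipid assembly and lipid droplets gave 2 upregulated and 1 downregulated DEG in catgut group 2 against treadmill, the same numbers in catgut group 2 against control, 1 downregulated in catgut group 1 against treadmill and 0 in the other comparisons. In the first 3 of these comparisons, 3.76%, 5.95% and 3.12% of all genes were DEGs. Lpin1, the phosphatidate phosphatase that makes diacylglycerol, the substrate of Dgat2, was 22.7 ± 3.65 FPKM in treadmill and 12.6 ± 2.50 in catgut group 2 (SD, n = 6). It was downregulated against treadmill (log2 fold change -0.88 ± 0.15 SE, edgeR adjusted p = 0.0421), and all 6 libraries were below every treadmill library, as in 0.454% of all genes. In the same comparison, Lpin2, another phosphatase of this family, was upregulated (0.59, edgeR adjusted p = 0.295), as was Mogat2, a monoacylglycerol acyltransferase (0.56, edgeR adjusted p = 0.368). Against control, catgut group 2 had more Agpat2, which acylates lysophosphatidate (1.29, edgeR adjusted p = 0.183), more Gpam, which begins glycerolipid synthesis (0.59, edgeR adjusted p = 0.222), and less Lpin1 (-0.69, edgeR adjusted p = 0.132). Agpat2 and Mb were both highest in catgut group 2 replicate 1 (14.1 and 15644 FPKM) and both lowest in catgut group 1 replicate 3 (1.52 and 3506 FPKM). In catgut group 2 replicate 2, Agpat2 was 3.01 FPKM with Mb at 10101. These values describe single libraries and were not tested. Fitm2, which helps lipid droplets to form, was lower in catgut group 1 than in treadmill (-0.74, edgeR adjusted p = 0.633).

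The lists next to the carboxylases and Fasn held no DEG, which in lists of this size is close to the shares of all genes given above. None of 8 tested genes of acetyl-CoA and NADPH supply and none of 11 genes of malonyl-CoA use and AMPK met the criterion in any comparison by edgeR. At most 2 genes per comparison had an unadjusted p under 0.05 in each list, beside 3.26% to 16.4% of all genes. In catgut group 2 against control, all 8 supply genes had a log2 fold change above 0, against 4 to 7 in the other comparisons. Their median was 0.20 beside -0.005 over all genes, and 2 had an unadjusted p under 0.05 beside 16.4% of all genes. Of 18 other desaturases, elongases and acyl-CoA synthetases, 1 was a DEG in 1 comparison, Elovl3 in catgut group 1 against control (log2 fold change 1.04, edgeR adjusted p = 0.466), at 0.252 FPKM, beside 4.62% of all genes. Among 17 genes of cholesterol synthesis, which the sister factor SREBP-2 is known to drive, Dhcr7 was lower in catgut group 1 (-1.09, edgeR adjusted p = 0.621) and catgut group 2 (-0.99, edgeR adjusted p = 0.355) than in treadmill. These were the DEGs of the list there, beside 3.12% and 3.76% of all genes. Stard4 was higher in catgut group 1 than in control (0.63, edgeR adjusted p = 0.447), beside 4.62%. In treadmill against control, 1 gene of the list was upregulated, beside 2.85%. Catgut group 2 against control had 0 DEGs of the list, with 7 genes at an unadjusted p under 0.05 beside 16.4% of all genes. The list of the fasting and fatty acid response had 0 to 2 DEGs among 9 tested genes per comparison, beside 1.25% to 5.95% of all genes. Ucp3, the uncoupling protein of muscle that is known to rise with circulating fatty acids, was 137 ± 56.7 FPKM in treadmill, 47.6 ± 29.4 in catgut group 1 and 36.1 ± 5.10 in catgut group 2 (SD, n = 6), with log2 fold changes against treadmill of -1.56 (edgeR adjusted p = 0.269) and -1.96 (edgeR adjusted p = 0.00589). Its control libraries ran from 16.45 FPKM in replicate 5 to 286 in replicate 1, the lowest and the highest of all 24 libraries. Angptl4, an inhibitor of lipoprotein lipase, was lower in catgut group 2 than in treadmill (-1.08, edgeR adjusted p = 0.435).

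**Figure D5:**
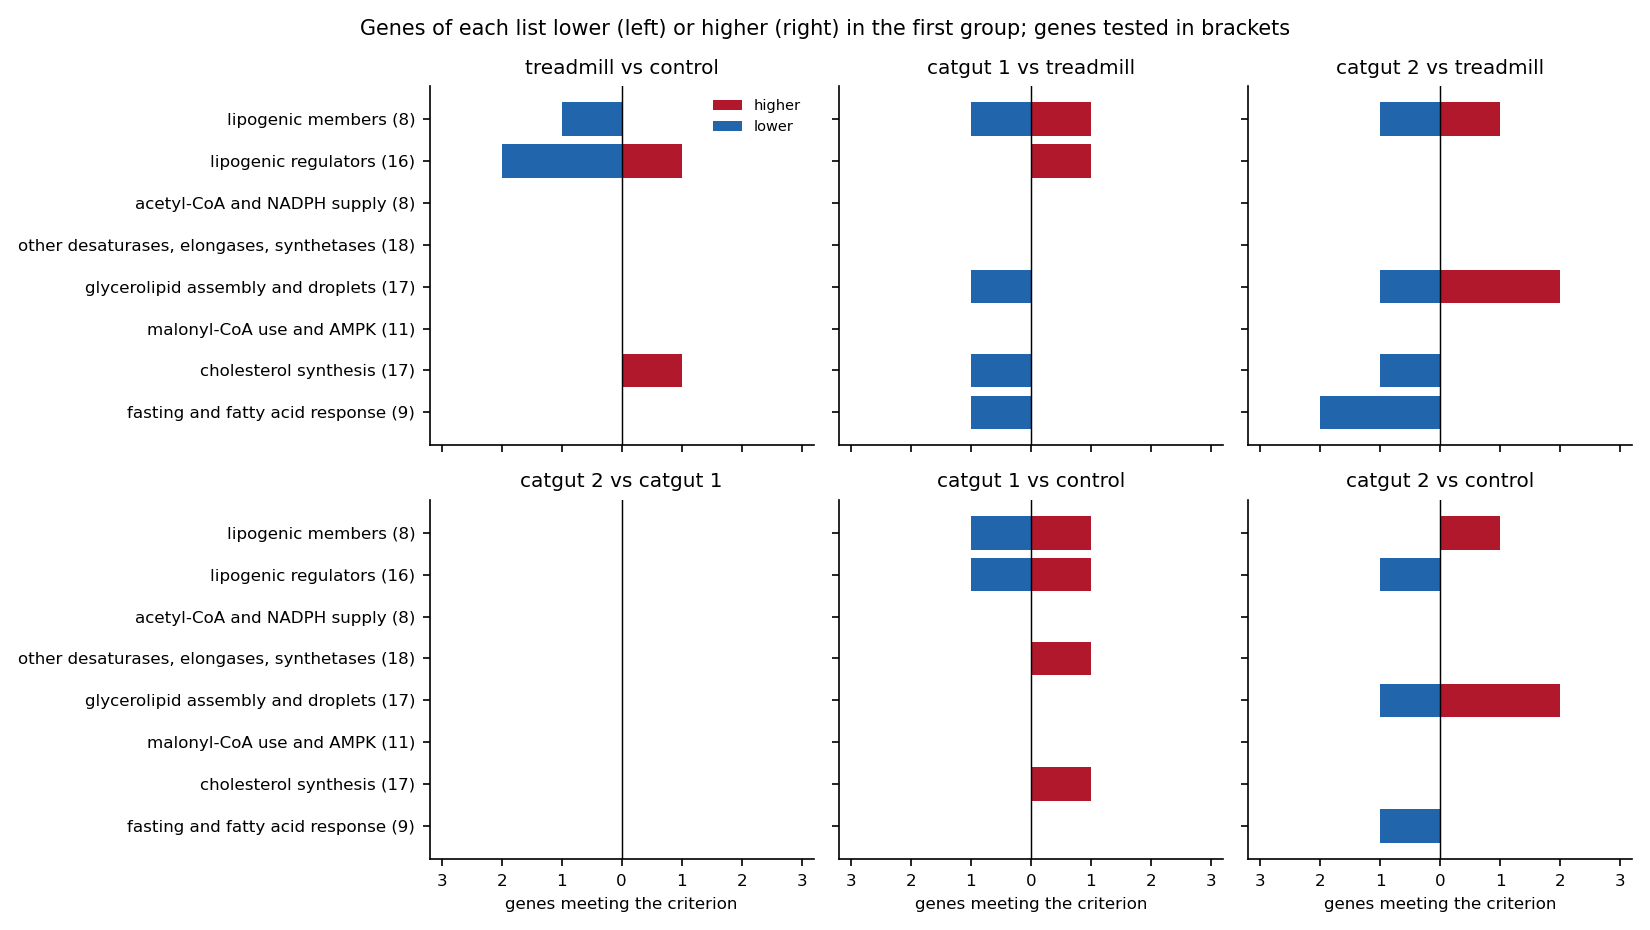
Number of genes of each list that met the criterion in each comparison (horizontal axis), with downregulated genes to the left of 0 in blue and upregulated genes to the right in red. The number of tested genes is given in brackets after the list name. The lists of acetyl-CoA and NADPH supply and of malonyl-CoA use and AMPK have no bar in any of the 6 panels, and the panel of catgut 2 against catgut 1 is empty.

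The clock list held more DEGs in the comparisons of a catgut group with treadmill than in the other comparisons. Of 16 tested, 7 were upregulated and 2 downregulated in catgut group 1 against treadmill, 8 and 2 in catgut group 2 against treadmill, and 0 and 5 in treadmill against control. Beside these stand 3.12%, 3.76% and 2.85% of all genes. Arntl, the clock activator BMAL1, was 7.49 ± 2.74 FPKM in treadmill and 1.46 ± 0.485 in catgut group 2 (SD, n = 6; log2 fold change -2.37, edgeR adjusted p = 0.00494), and Per2, a clock repressor, was 2.10 ± 0.907 and 9.80 ± 2.27 (log2 fold change 2.19, edgeR adjusted p = 0.00691). The control libraries were mixed, with Arntl at 11.4 and 9.26 FPKM in replicates 1 and 2 and at 1.11 to 2.32 in the other 4. The part of the clock list in the values of the members was not tested. Of 5 tested blood markers, 4 were upregulated in treadmill and 3 in each catgut group against control. The shares of all genes were 2.85% for treadmill, 4.62% for catgut group 1 and 5.95% for catgut group 2. The part of the blood markers in the members' values was not tested either. Of 12 tested liver markers, 11 were downregulated in each catgut group against treadmill, beside 3.12% (catgut group 1) and 3.76% (catgut group 2) of all genes. Against control, 10 were downregulated in each catgut group, beside 4.62% and 5.95%. Treadmill against control gave 0, beside 2.85%. Without the 3 libraries of high Alb, the log2 fold change was -1.26 for Scd in treadmill against control (edgeR adjusted p = 0.283), -0.77 for Scd in catgut group 1 against treadmill (edgeR adjusted p = 0.7002), and -0.80 for Srebf1 and 0.99 for Dgat2 in catgut group 2 against treadmill (edgeR adjusted p = 0.184 and adjusted p = 0.315). Among the members' calls, only the Dgat2 call of catgut group 1 against treadmill was lost (0.81, edgeR adjusted p = 0.736).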

How the data were processed

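Poly(A) RNA of 24 rat quadriceps samples was sequenced with paired ends. The study assigned 6 rats to each group, but the labels do not tie a library to a rat, so p-values measure the spread between these samples. The submitters' processing notes name HISAT2 2.0 and StringTie 1.3.0, and the genome build is not given in the sources used here. The authors deposited raw counts per gene and FPKM values in 1 table with sample titles in its column names. The commonest counts above 0 were 4 and then 8, so the limit of detection was set at 3 fragments of 4 counts each, or 12 counts, and division of the counts by 4 was tried as an alternative. It covers counting error only.

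A gene was tested if its mean over the libraries reached 0.1 FPKM. Tests were run on the counts as deposited, with edgeR 4.0.16 (R 4.3.3, TMM scaling, quasi-likelihood test), fitting the 2 groups compared alone, with Benjamini-Hochberg adjustment over all genes tested. Alternatives were limma 3.58.1 on log2(FPKM + 1) or log2(FPKM + 0.1), DESeq2 1.42.0, no filter or a mean FPKM of at least 1, median ratio scaling, 1 fit over all 4 groups, a replicate block, leaving out each library, and an adipocyte or Y-linked level as a covariate. Leaving out the 3 libraries over 10 FPKM of Alb and a covariate of Mb were added after the data were seen. In every alternative the fold part of the criterion was the ratio of mean FPKM of the libraries used. Another method or a covariate could therefore change only the p. The scripts were tested on simulated data. Single values were compared by exact two-sided permutation tests, and figures were drawn with matplotlib 3.10.9.

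The members and lists were chosen with earlier results of these data known. Named beyond the members are genes of a list that met the criterion, at most the 3 of smallest p per list and comparison, defining marker genes, and the 5 genes most correlated with Scd. Some genes that this rule names are not reported here. Dgat1, Scd2, Pmp22 and Mbp were named after their values were seen.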

Additional observations from a re-analysis of the deposited data

Results flagged for a closer look

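Within the 32 sets of 6 libraries examined (8 members in 4 groups), 2 held a library far from the other 5 by Dixon's test, which chance does in about 1 in 20 sets. Both were for Scd. Catgut group 2 replicate 2 had 2.64 FPKM of Scd, with a gap to the next library of 0.882 of the range of the group. Treadmill replicate 1 had 0.239 FPKM of Scd, the lowest of its group, with a gap of 0.730 of a narrow range.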

How the results depend on the processing

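Of the members' log2 fold changes under the alternatives that kept all libraries or left out a set or added a covariate, 627 kept their direction and side of the threshold, 16 reversed, 7 lost and 2 gained the call. Scd and Fasn have means of 0.478 and 0.506 FPKM. With a mean FPKM of at least 1 they were therefore not tested, and a Scd call missing there is not a lost call. Members meeting the criterion in treadmill against control numbered 0 with that filter, in the fit over all 4 groups and with the replicate block. In catgut group 1 against treadmill they numbered 1 in those 3 settings, with the adipocyte covariate and without the libraries of high Alb. For catgut group 2 against catgut group 1 they numbered 1 with DESeq2 and in the fit over all 4 groups, and in catgut group 1 against control 1 with a mean FPKM of at least 1. They numbered 2 in catgut group 2 against control with no filter and 0 with the Mb covariate. Members with an adjusted p under 0.05 numbered 1 in catgut group 2 against treadmill (DESeq2), 2 in catgut group 1 against control (DESeq2), and in catgut group 2 against control 2 (DESeq2, or a mean FPKM of at least 1) and 1 (limma with either pseudocount, or the Y-linked covariate). Leaving out 1 library gave 0 to 2 members at that threshold in catgut group 2 against control. By the criterion it gave 0 to 1 in catgut group 2 against catgut group 1 and 1 to 2 in the 4 other comparisons whose count moved. The Dgat2 call of catgut group 1 against treadmill was lost in 8 of these fits (without treadmill replicate 1, 2, 5 or 6, or without catgut group 1 replicate 1, 2, 4 or 5), where its unadjusted p was above 0.05. Srebf1 gained the call in treadmill against control in 5 fits that left out 1 library. The cause was not tested.

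Reversed log2 fold changes in treadmill against control without the libraries of high Alb were -0.25 for Fasn, -0.0908 for Acly and 0.0395 for Dgat2. For catgut group 1 against treadmill, Acaca was 0.0029 with limma on log2(FPKM + 0.1). For catgut group 2 against treadmill, Scd was -0.0927 with the same and -0.43 with the block, and Acly was -0.0238 with the Y-linked covariate. For catgut group 2 against catgut group 1, Acacb was 9.7e-05 with no filter, 0.0026 with a mean FPKM of at least 1 and 0.0118 with the adipocyte covariate, and Dgat2 was -0.12 with the Mb covariate. In catgut group 1 against control, Fasn was 0.0043 with the block and 0.40 with the adipocyte covariate. With the Mb covariate in catgut group 2 against control, Scd was 0.43, Acaca -0.0893 and Acacb -0.22.

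Leaving out 1 library moved the log2 fold change across 0 for these members. In treadmill against control, the range was -0.0783 to 0.34 for Fasn, -0.0350 to 0.16 for Acly and -0.28 to 0.14 for Dgat2. In catgut group 1 against treadmill, it was -0.13 to 0.10 for Acaca and -0.17 to 0.0214 for Acacb. For catgut group 2 against treadmill, it was -0.79 to 0.92 for Scd, -0.16 to 0.0797 for Acaca, -0.19 to 0.0246 for Acacb and -0.0744 to 0.10 for Acly. In catgut group 2 against catgut group 1, it was -0.0443 to 1.67 for Scd, -0.11 to 0.0417 for Acaca, -0.13 to 0.0732 for Acacb and -0.0270 to 0.41 for Dgat2. For Fasn in catgut group 1 against control it was -0.29 to 0.12, and for Acaca in catgut group 2 against control -0.0028 to 0.14.

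The replicate numbers did not pair the libraries. Same-numbered libraries correlated in their deviations from the group means at -0.49 to 0.28, and at most 2 of 6 correlated best with their own number in any comparison. With the replicate block, members meeting the criterion numbered 0 in treadmill against control, where the call of Scd was lost (log2 fold change -0.86, edgeR adjusted p = 0.676), 1 in catgut group 1 against treadmill, where that of Dgat2 was lost, 2 in catgut group 2 against treadmill, 0 in catgut group 2 against catgut group 1, 2 in catgut group 1 against control and 1 in catgut group 2 against control. Scd rests on 21 to 735 counts per library.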
